A study of Drosophila melanogaster with 21 samples.

Results

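The effect of frame-shift mutations in the transcription factor gene CG11247, also called Saft, was compared between the brain and the ovary of adult Drosophila melanogaster females, gene by gene. A gene entered the comparison when it reached at least 1 CPM (counts scaled to library size) in every library of at least 1 group of brain and of at least 1 group of ovary. Of 13955 genes in both count tables, 7172 did so. Another 1663 genes met the minimum in brain alone, 569 in ovary alone, and 4551 in neither tissue. For each gene the mutant effect was the mean of both mutants minus wild type on the log2 scale, and the tissue difference was that effect in brain minus the same effect in ovary. A positive difference therefore means a mutant effect that was more positive, or less negative, in brain. The question asked was where a gene responds, and whether its wild-type level in a tissue goes with that.

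RNA came from 3 genotypes. The wild type was the isogenised white parent (w;;;). Mutant 1 carries a frame-shift deletion of 1 bp in exon 1 of CG11247, and mutant 2 an independent frame-shift deletion of 2 bp in exon 2. Both alleles were made with CRISPR-Cas9 in that parent and are listed as single stocks over the balancer chromosome TM3,Sb. The sources used here do not state whether the dissected mutant females were homozygous or carried the balancer. All females were mated and 3 to 4 days old. A brain library pooled 40 brains and each genotype had 2 libraries. An ovary library pooled 5 pairs of ovaries and each genotype had 3. The libraries were made from rRNA-depleted total RNA and kept the strand. The replicates are called biological, but separate dissections are not stated, so the p-values reflect how far these libraries vary, which may be technical.

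The study asked what CG11247 does in gene regulation, within a wider work on silencers, DNA elements that lower transcription. The brain consists mostly of neurons and glia, while the ovary holds germline cells that load the egg and somatic follicle cells that enclose it and later secrete the eggshell. Several of the gene groups described here belong to the apical extracellular matrix and the cuticle, layers of chitin and proteins that epithelial cells lay down on their outer face.

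The edited stretches of CG11247 show what separates the mutants from their parent. The gene lies on chromosome arm 3L, from 21724326 to 21728806 on the minus strand of build BDGP6. The sequences are those that the submitters gave, and the capitals mark the base on each side of the deletion.
mutant 1: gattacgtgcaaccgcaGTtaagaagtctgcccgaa
mutant 2: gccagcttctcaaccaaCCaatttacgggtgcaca

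The transcript of CG11247 itself was still present in both mutants. In brain it stood at 112 and 118 CPM in the wild-type libraries, 86.1 and 83.8 CPM in mutant 1, and 143 and 131 CPM in mutant 2. In ovary the wild-type libraries held 52.1, 49.7 and 56.6 CPM, and the 6 mutant libraries ran from 24.9 through a median of 42.7 to 62.9 CPM. Mutant 1 lay below wild type in both tissues and mutant 2 above it, so the mutant libraries as a whole overlapped wild type in brain and in ovary. The effect fell by 0.43 on the log2 scale (SE 0.05) in ovary and was -0.09 (SE 0.06) in brain. Its tissue difference was 0.34 (SE 0.08; edgeR adjusted p = 0.0177), and 0.63 in mutant 1 alone against 0.045 in mutant 2 alone. Without brain wild-type replicate 1 it was no longer called (edgeR adjusted p = 0.11). A frame shift need not remove the transcript, so these levels do not check the labels of the libraries.

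Libraries held 39.0 to 45.6 M counts in brain and 14.1 to 21.5 M in ovary, and log-scale correlations between replicates of a group ran from 0.99 to 0.997. The tissues matched their labels by summed CPM of marker lists. Neuron markers summed to 44500 to 45600 CPM in wild-type brain and to 167 to 193 CPM in wild-type ovary. Follicle cell markers summed to 138 to 145 CPM in wild-type brain and to 28800 to 30900 CPM in wild-type ovary. Germline markers summed to 11100 to 11500 CPM in wild-type ovary and to 1890 to 1910 CPM in wild-type brain. In such pooled tissue, fewer cells of a type and less RNA per cell cannot be told apart.

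Among the genes whose mutant effect differed between the tissues, the larger change was mostly in ovary, where the median absolute effect over all genes was larger too. Of the 7172 genes, 227 had a more positive effect in brain and 292 a more negative one at an edgeR adjusted p under 0.05. Over all 10029 genes tested, 2.62% were called in the first direction and 3.67% in the second. Within brain, 139 of the 7172 genes rose in the mutants and 65 fell, against 1.93% and 0.897% of all genes tested. Within ovary, 999 rose and 1102 fell, against 12.3% and 12.4% of all genes tested. The ovary had 3 libraries a group and the brain 2, so the number of calls in one tissue cannot be read against that in the other. Over all 7172 genes, called or not, the median absolute effect was 0.063 in brain and 0.13 in ovary on the log2 scale. Among the 519 genes with a called difference the larger change was in ovary for 415 and in brain for 104. That count was not made over all 7172 genes, so it is not shown to be particular to the called ones. Of those 415 genes, 244 were higher in mutant ovaries and 171 lower. Of the 244, 71 met the CPM minimum in at least 1 tissue only through mutant libraries, which favours a rise. None of the 171 did. Of those 104, 56 were higher in mutant brains and 48 lower.

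The balance between the directions depended on the scaling of the libraries. With DESeq2's size factors in the same test, 365 genes had a more positive effect in brain and 236 a more negative one. With library totals alone, these counts were 173 and 453, with DESeq2 568 and 303, and with the 7172 genes fitted alone 366 and 308. The ovary counts moved likewise, to 797 higher and 1311 lower with the size factors and to 1720 and 688 with library totals. Without brain wild-type replicate 2 the tissue difference was called for 79 genes in the positive direction and 166 in the negative. Without brain wild-type replicate 1 the positive count was 112, and without ovary wild-type replicate 1 or 2 it was 142 or 151. The 65 genes that fell in brain were 22 without brain wild-type replicate 1 and 38 without replicate 2. Without ovary wild-type replicate 2, 504 genes rose and 523 fell in ovary.

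Calls were compared between the tissues. In 105 genes both tissues were called with the same sign, 87 of them higher in both and 18 lower in both. In 16 genes both tissues were called with opposite signs. Another 83 genes were called in brain alone and 1980 in ovary alone. A call in one tissue and none in the other does not show a difference. The direct test of the difference was called for 45 of the 83 genes and for 373 of the 1980. Of the 87 genes higher in both tissues, 52 had entered through mutant libraries in at least 1 tissue. Among the other 35, the difference was called for 22, and the median effect was 1.39 in brain and 1.86 in ovary. Across the 7172 genes, 54.7% had the same sign in both tissues. Leaving out genes that entered through mutant libraries, the share was 69.5% of the 141 called in brain and 61.3% of the 1985 called in ovary.

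A gene that met the CPM minimum only through its mutant libraries had to be high in them, and 219 genes entered that way in at least 1 tissue. Of these, 141 passed that way in ovary, 42 in brain and 36 in both. They are part of the counts over the 7172 genes, and named genes among them are pointed out. Among the 219, 72 had a more negative effect in brain and 8 a more positive one, which the rule of entry favours. The other 6953 genes passed through wild type in both tissues. Among them 219 genes were more positive in brain and 220 more negative. With DESeq2's size factors the split was 356 and 164, with DESeq2 555 and 223, and with library totals 165 and 376. By the TMM-scaled fit, the larger change was in ovary for 344 of these 439 genes (78.4%). Over all 6953 genes the median absolute effect was 0.0612 in brain and 0.127 in ovary. Of the 344, 173 were higher in mutant ovaries and 171 lower.

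**Figure D1:**
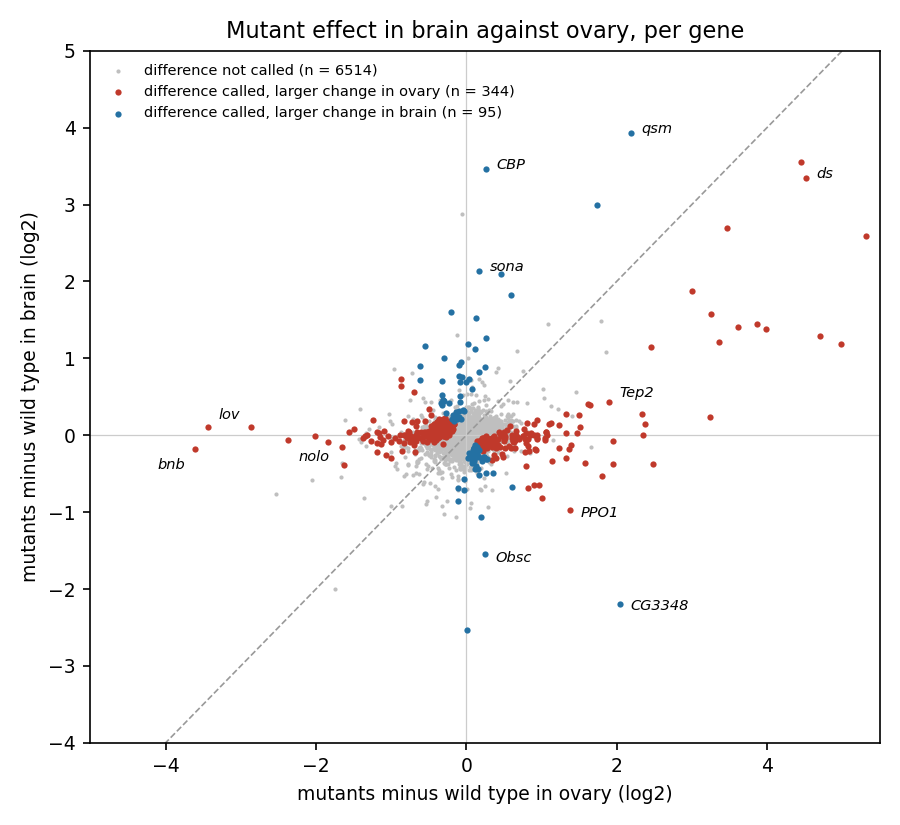
Mutant effect in ovary (horizontal axis, log2) against that in brain (vertical axis, log2) for the 6953 genes that met the CPM minimum through wild type in both tissues; 4 genes lie outside the axes and the dashed line marks equal effects. Genes with a called difference and a larger change in ovary (344, red) spread along the horizontal axis, and those with a larger change in brain (95, blue) along the vertical one.

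The 12 most negative and the 12 most positive differences were taken from called genes. Only genes whose groups did not overlap in the tissue with the larger change were taken, so that separation was set by the choice. The 12 most negative genes were higher in mutant ovaries. Of these, 11 met the CPM minimum in ovary through mutant libraries alone, so that direction was fixed by the rule of entry and their values are a description. CG43163 entered through wild type. The minimum was applied to CPM from library totals, and the CPM values given are TMM-scaled. uif (uninflatable), a transmembrane protein of the apical surface of epithelia, stood at 18.3 and 17.9 CPM in wild-type brain and at 79.7 and 82.6 CPM in mutant 1 and 78.4 and 92.7 CPM in mutant 2. In ovary it stood at 0.523, 1.18 and 1.05 CPM in wild type, and the 6 mutant libraries ran from 533 through 638 to 695 CPM. The groups did not overlap in either tissue. The effect was 2.21 (SE 0.11) in brain and 9.40 (SE 0.15) in ovary, a difference of -7.20 (SE 0.19; edgeR adjusted p = 7.89e-12). CG43163 followed the same course, from 4.56 and 4.37 CPM in wild-type brain to between 34.6 and 40 CPM in the mutants. In ovary it went from 0.929, 1.61 and 0.96 CPM to 472 through 529 to 549 CPM. Both tissues rose without overlap, and the difference was -5.76 (SE 0.19; edgeR adjusted p = 7.85e-11). Both genes were thus lower in ovary than in brain in wild type and higher in ovary than in brain in the mutants.

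Of other genes of this kind, ple and ect changed in ovary with no call in brain. ple (pale) encodes tyrosine hydroxylase, which makes the precursor of dopamine and is also used in hardening cuticle. Its brain libraries held 77.3 and 75.9 CPM in wild type, 77.2 and 80.3 CPM in mutant 1, and 89.1 and 75.0 CPM in mutant 2, with overlap. In ovary the wild-type libraries held 0.406, 0.186 and 0.366 CPM, and the mutants ran from 19.8 through 24 to 30.1 CPM, with no overlap. The effect was 0.07 (SE 0.13) in brain and 6.20 (SE 0.26) in ovary, and the difference was -6.13 (SE 0.31; edgeR adjusted p = 1.92e-08). ect was at 0.29, 0.124 and 0.32 CPM in wild-type ovary and at 9.08 through 15.5 to 22.9 CPM in the mutants. Its brain effect was -0.24 (SE 0.18), which was not called although the mutant libraries lay below both of wild type, and the difference was -6.15 (SE 0.34; edgeR adjusted p = 1.95e-08). Cyp301a1, a cytochrome P450 of cuticle formation, was at 0.174, 0.186 and 0.183 CPM in wild-type ovary and at 12.2 through 22 to 23.4 CPM in the mutants. It also rose in brain, by 0.77 (SE 0.19; edgeR adjusted p = 0.0462), and its difference was -5.99 (SE 0.39; edgeR adjusted p = 1.88e-07).

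In 5 of the 12 most negative genes no read was counted in any of the 3 wild-type ovary libraries, so only a lower bound of the ovary change can be given, set by 3 counts over those libraries together. spz4, a ligand of the Spätzle family related to the ligand of Toll, was at least 1620-fold higher in mutant ovaries, where it ran from 81.8 through 88.3 to 92.2 CPM. In brain it went from 0.0604 and 0.0898 CPM in wild type to between 3 and 4.19 CPM in the mutants. dyl (dusky-like), a zona pellucida domain protein that shapes the apical matrix of bristles and denticles, was at least 592-fold higher in mutant ovaries. In brain its summed counts were 35.7 times higher in the mutants (counting interval 12.1 to 175), and its tissue difference was not called under 8 of 25 alternatives. Clect27, a C-type lectin, was at least 198-fold higher in mutant ovaries, and CG11905 at least 129-fold. Both also rose in brain, by 1.72 (SE 0.26) and 1.89 (SE 0.18) on the log2 scale. In brain too, spz4, dyl and CG11905 met the CPM minimum through mutant libraries alone, so their rise there was fixed by the rule of entry.

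Cpr62Bb, a structural protein of cuticle with a chitin-binding domain, was called in ovary and not in brain. It was at 14.4 and 11.2 CPM in wild-type brain and between 10.9 and 13 CPM in the mutants, with overlap. It was at 0 in wild-type ovary and at 1.08 through 1.38 to 2.29 CPM in the mutants, which is at least 28-fold higher. CG17211, which met the CPM minimum in brain through mutant libraries alone, and CG10657 had 1 and 3 counts in wild-type ovary. Their summed ovary counts were 572 times (counting interval 103 to 22600) and 47.9 times (16.3 to 234) higher in the mutants, and neither was called in brain. The tissue difference was called for CG17211 (edgeR adjusted p = 3.28e-05) and for CG10657 (edgeR adjusted p = 3.28e-05). Counting intervals and bounds cover counting error alone.

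Of the 12 most positive differences, 6 came from a fall in ovary in genes that are far higher in brain. lov (jim lovell), a BTB-domain transcription factor, was at 100.5 and 99.8 CPM in wild-type brain, 122 and 107 CPM in mutant 1, and 101 and 102 CPM in mutant 2. In ovary it was at 9.35, 8.92 and 9.73 CPM in wild type and at 0.502 through 0.908 to 1.36 CPM in the mutants. All 6 mutant ovary libraries lay below wild type, while the mutant brain libraries lay slightly above it. The ovary effect fell by 3.43 (SE 0.11) on the log2 scale, the brain effect was 0.11 (SE 0.07), and the difference was 3.54 (SE 0.13; edgeR adjusted p = 4.27e-10). bnb (bangles and beads) was at 12.7, 10.5 and 12.8 CPM in wild-type ovary and at 0.667 through 0.938 to 1.38 CPM in the mutants. In brain it was at 1140 and 973 CPM in wild type and between 862 and 980 CPM in the mutants, with overlap, and the difference was 3.44 (SE 0.19; edgeR adjusted p = 1.95e-08).

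RhoGAP100F, which acts at the presynaptic active zone, was at 14.2, 11.8 and 16.1 CPM in wild-type ovary and at 2.69 through 3.49 to 4.27 CPM in the mutants. Its brain libraries ran from 1163 to 1351 CPM in the mutants around 1260 and 1283 CPM in wild type. The groups overlapped in brain and not in ovary, and the difference was 2.01 (SE 0.15; edgeR adjusted p = 7.84e-07). nolo (no long nerve cord), a secreted ADAMTS-like protein, was at 2.03, 1.8 and 1.28 CPM in wild-type ovary and at 0.255 through 0.323 to 0.374 CPM in the mutants. Its brain level was 1091 and 1088 CPM in wild type and between 1034 and 1051 CPM in the mutants, apart but not called, and its difference was 2.31 (SE 0.20; edgeR adjusted p = 2.67e-06). CG5644 and tty (tweety), a chloride channel, made up the rest, with differences of 2.97 (SE 0.17; edgeR adjusted p = 2.39e-08) and 1.76 (SE 0.11; edgeR adjusted p = 1.16e-07). The neuron markers summed to 167 to 193 CPM in wild-type ovary and to 199 to 242 CPM in mutant ovaries. Of 23 neuron markers tested there, 4 rose and 1 fell, beside 12.3% and 12.4% of all genes tested, and ChAT was at 0. Their part in the ovary falls was not tested.

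The other 6 of the 12 came from a rise in brain, in genes that are higher in wild-type ovary. Of these, CG5921, f and CG5326 met the CPM minimum in brain through mutant libraries alone, so their rise there was fixed by the rule of entry. CBP, a sarcoplasmic calcium-binding protein, was at 2.12 and 1.92 CPM in wild-type brain, 30.2 and 31.4 CPM in mutant 1, and 15.3 and 16.7 CPM in mutant 2. In ovary it was at 121, 96.8 and 124 CPM in wild type and at 130 through 138 to 141 CPM in the mutants. Both tissues separated mutants from wild type, brain by far the more. The effect was 3.46 (SE 0.13) in brain and 0.26 (SE 0.07) in ovary, and the difference was 3.20 (SE 0.14; edgeR adjusted p = 2.15e-09). CG5921 was at 1.51 and 1.2 CPM in wild-type brain and between 7.23 and 8.24 CPM in the mutants. In ovary its wild-type libraries held 14.2, 12.8 and 12.4 CPM and the mutants 9.95 through 12.1 to 14.3 CPM, with overlap. Its difference was 2.62 (SE 0.18; edgeR adjusted p = 2.57e-07).

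sona, a secreted metalloprotease of the ADAMTS family, was at 6.17 and 4.7 CPM in wild-type brain and between 21.9 and 25.1 CPM in the mutants. In ovary it was at 84.3, 76.4 and 92.7 CPM in wild type and at 66.2 through 93.4 to 123 CPM in the mutants, with overlap. The difference was 1.97 (SE 0.27; edgeR adjusted p = 0.00103). CG5326 and Elovl7, a fatty acid elongase, showed the same pattern, with brain effects of 1.95 (SE 0.20) and 1.61 (SE 0.24), no call in ovary, and differences of 2.08 (SE 0.22; edgeR adjusted p = 3.13e-05) and 1.81 (SE 0.30; edgeR adjusted p = 0.00161). f (forked), which bundles actin in bristles, rose in both tissues. It went from 0.272 and 0.359 CPM in wild-type brain to between 20.5 and 25.8 CPM, and from 4.12, 3.78 and 3.66 CPM in wild-type ovary to 41.6 through 47.8 to 50.7 CPM. Its difference was 2.54 (SE 0.25; edgeR adjusted p = 1.12e-05).

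Opposite called effects were found in 16 genes, 11 of them lower in brain and higher in ovary. ImpL2, a secreted protein that binds insulin-like peptides, was at 69 and 95.6 CPM in wild-type brain, 44.7 and 47.1 CPM in mutant 1, and 61.4 and 34 CPM in mutant 2. In ovary it was at 53, 47.1 and 50.1 CPM in wild type and at 92.2 through 100.2 to 110 CPM in the mutants. Neither tissue had overlapping groups. Its difference was -1.82 (SE 0.25; edgeR adjusted p = 0.00122), and -1.82 in each mutant alone. PPO1, a prophenoloxidase of blood cells, was at 151 and 99.5 CPM in wild-type brain and between 61.9 and 68.2 CPM in the mutants. In ovary it went from 0.871, 1.61 and 1.6 CPM to 2.16 through 3.68 to 6.4 CPM, and its difference was -2.35 (SE 0.34; edgeR adjusted p = 0.00114). Hml (Hemolectin), a clotting protein of blood cells, fell in brain from 558 and 485 CPM to between 312 and 360 CPM. Its ovary libraries overlapped, at 1.45, 2.54 and 1.87 CPM in wild type and 2.28 through 3.38 to 7.32 CPM in the mutants. It had a difference of -1.61 (SE 0.29; edgeR adjusted p = 0.00549). The differences were -4.24 (SE 0.62) for CG3348, -1.50 (SE 0.20) for CG40006 and -1.28 (SE 0.23) for firl.

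For these 6 genes the tissue difference was lost under fewer alternatives than the brain call. The brain call was lost under 17 of 25 alternatives for ImpL2, 18 for CG40006, 8 for Hml, 5 for firl, 4 for CG3348 and 1 for PPO1. Brain wild-type replicate 1 was needed for the brain call of CG3348, PPO1, CG40006, Hml and firl, whose edgeR adjusted p without it was 0.288, 0.0573, 0.834, 0.253 and 0.201. For ImpL2 it was 0.577 without brain wild-type replicate 2. The ovary call of Hml and firl was lost without ovary wild-type replicate 1 (edgeR adjusted p = 0.0751 and 0.0955). Leaving out other single libraries also ended brain calls, with edgeR adjusted p from 0.0649 to 0.148 for ImpL2, 0.0503 to 0.144 for CG40006, 0.05 to 0.068 for Hml and 0.0519 to 0.133 for firl, and 0.0644 for CG3348 without mutant 1 replicate 2. In ovary it did so for Hml without wild-type replicate 3 (edgeR adjusted p = 0.0616) and for firl without replicate 2 or 3 (edgeR adjusted p = 0.0541 and 0.0613). The ovary call was also lost with limma voom for PPO1 and firl (adjusted p = 0.107 and 0.0853), in mutant 1 alone for PPO1 and Hml (edgeR adjusted p = 0.103 and 0.272), and in mutant 2 alone for firl (edgeR adjusted p = 0.0833). The difference was called throughout for 5 of the 6, and for Hml under all but mutant 1 alone (edgeR adjusted p = 0.111). Markers of blood cells summed to 7170 to 7980 CPM in wild-type brain and 5420 to 5740 CPM in mutant brains, and to 1700 to 1730 CPM in wild-type ovary and 1310 to 1700 CPM in mutant ovaries. Of 28 such markers tested, 11 fell and 2 rose in brain, beside 0.897% and 1.93% of all genes tested. In ovary 5 fell and 7 rose, beside 12.4% and 12.3%, and He and NimC3 were at 0 there. Whether that shift took part in the lower brain levels of PPO1 and Hml was not tested.

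Some genes rose in both tissues from next to nothing, all named here having entered through mutant libraries in both, and for these the tissue difference could not be measured well. CG8172, CG8192 and CG7432 are examples, along with cysu, CG6026 and NT1, a neurotrophin of the Spätzle family. CG8172 was at 0 in all 5 wild-type libraries, and it was at least 664-fold higher in mutant brains and at least 34.8-fold higher in mutant ovaries. CG7432 was at 0 and 0.0599 CPM in wild-type brain and between 29.1 and 32.2 CPM in the mutants, and in ovary it went from 0, 0 and 0.0914 CPM to 6.14 through 8.09 to 10.02 CPM. Mutants and wild type were fully apart in both tissues. cysu rose to nearly the same level in both, between 11.2 and 13 CPM in mutant brains and from 10.3 through 13.6 to 14 CPM in mutant ovaries. With 2 counts in wild type in each tissue, the standard error of its difference was 1.03.

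**Figure D2:**
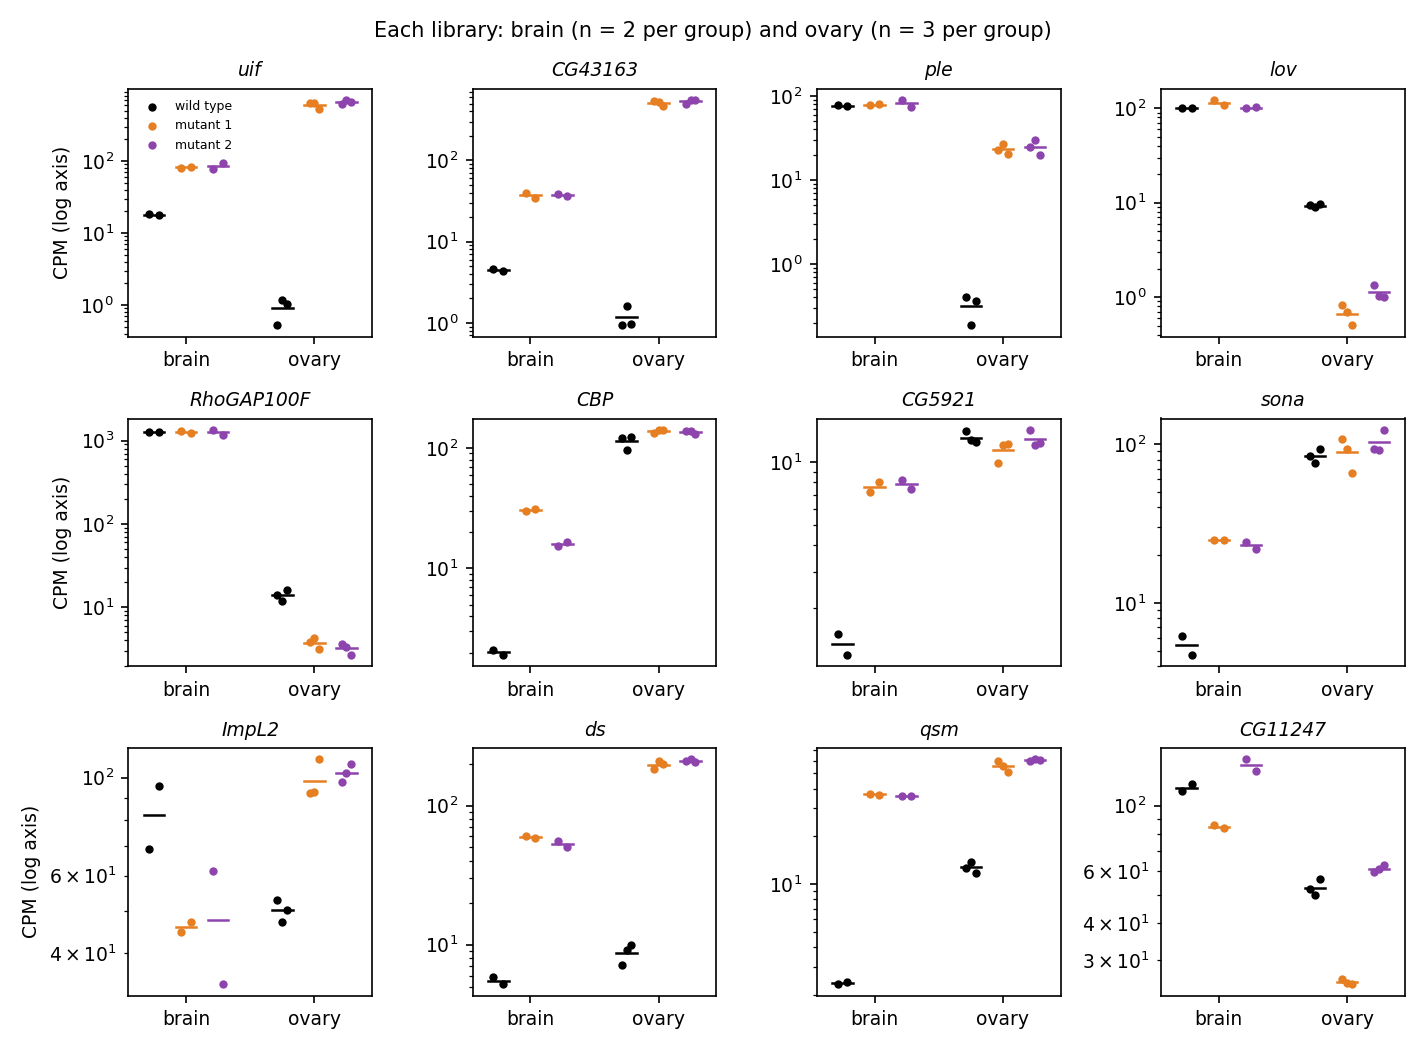
CPM in each library (log axis, a separate range per panel) for 12 genes, with brain at the left and ovary at the right of each panel; points are libraries and horizontal lines group means, in black for wild type, orange for mutant 1 and purple for mutant 2. uif and CG43163 cross over, lower in ovary than brain in wild type and higher in the mutants, while lov and RhoGAP100F fall in ovary alone and CBP and sona rise mainly in brain.

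Genes of the apical matrix and of chitin were described first over those that entered through wild type in both tissues. Over all 6953 such genes, 1.12% rose and 0.906% fell in brain, 12.7% rose and 15.8% fell in ovary, and 3.15% had a more positive and 3.16% a more negative difference. Of 12 apical matrix genes, 4 rose in brain, 6 rose and 1 fell in ovary, and 3 had a more negative and 1 a more positive difference. Of 9 chitin genes, none was called in brain by edgeR, 4 rose and 1 fell in ovary, and 3 had a more negative difference. The median effect of these chitin genes was -0.02 in brain and -0.03 in ovary, and their median difference -0.12, beside -0.03 over the 6953. With the genes that entered through mutants, which had to be higher there, the apical matrix list held 19 genes, of which 11 rose in brain and 13 in ovary. The chitin list then held 14, of which 4 rose in brain and 9 in ovary. rtv (retroactive), which orders chitin fibres in cuticle, entered through mutants in both tissues and went from 0.725 and 0.689 CPM in wild-type brain to between 29.7 and 34 CPM, and from 0.0581, 0.124 and 0.0457 CPM in wild-type ovary to 24.2 through 26.7 to 30.3 CPM. No groups overlapped, and the difference was -2.98 (SE 0.45; edgeR adjusted p = 0.000928).

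Cht6, a chitinase, was called in ovary alone, although the groups were apart in brain too. It was at 32.6 and 32.9 CPM in wild-type brain and between 41.5 and 44.9 CPM in the mutants, and at 4.41, 4.03 and 3.93 CPM in wild-type ovary and 10.1 through 12.8 to 15.4 CPM in the mutants. Its difference was -1.22 (SE 0.19; edgeR adjusted p = 0.00106), and that of Gasp, a chitin-binding protein that entered ovary through mutants, was -2.56 (SE 0.39; edgeR adjusted p = 0.00102). Cad96Ca, a receptor tyrosine kinase of epithelia and wound repair that entered ovary the same way, had a difference of -5.20 (SE 0.34; edgeR adjusted p = 1.79e-07). qsm (quasimodo), a zona pellucida domain protein also active in the circadian system, differed the other way. It went from 2.33 and 2.42 CPM in wild-type brain to between 35.7 and 37.2 CPM, and from 12.7, 13.7 and 11.8 CPM in wild-type ovary to 50.7 through 59.5 to 61.2 CPM. Its difference was 1.74 (SE 0.12; edgeR adjusted p = 1.79e-07).

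The Fat and Dachsous genes, which set planar polarity and feed into growth control by the Hippo pathway, were called in a few members. Of the 9 that entered through wild type in both tissues, 1 rose in brain, 2 rose in ovary and 1 had a more negative difference, beside 1.12%, 12.7% and 3.16% of the 6953 genes. Over all 12 measured, 3 rose in brain, 5 rose in ovary and 4 had a more negative difference, beside 1.94%, 13.9% and 4.07% of the 7172 genes. The genes added here entered through mutant libraries in at least 1 tissue, which favours a rise there. ds (dachsous), the protocadherin ligand, was at 5.83 and 5.18 CPM in wild-type brain and between 50.5 and 60.3 CPM in the mutants. In ovary it went from 7.2, 9.17 and 9.96 CPM to 184 through 207 to 215 CPM, and the difference was -1.18 (SE 0.13; edgeR adjusted p = 5.94e-05). ft (fat), its protocadherin receptor, changed in ovary alone, from 0.581, 1.05 and 0.548 CPM to 4.91 through 6.21 to 7.65 CPM. Its brain effect was 0.31 (SE 0.20), which was not called, and its difference was -2.80 (SE 0.31; edgeR adjusted p = 3.76e-05). lft (lowfat), which binds both proteins and like ft entered ovary through mutants, rose in both tissues, to between 81 and 87.7 CPM in mutant brains and to 67 through 73.1 to 74.8 CPM in mutant ovaries. Its difference was -1.72 (SE 0.25; edgeR adjusted p = 0.00062).

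Blood cell genes were called in both directions. Of the 16 that entered through wild type in both tissues, 1 rose and 5 fell in brain, beside 1.12% and 0.906% of the 6953 genes. In ovary 4 rose and 5 fell, beside 12.7% and 15.8%, and 4 had a more negative difference and none a more positive one, beside 3.16% and 3.15%. Tep3, a thioester-containing protein of immunity that entered ovary through mutants, rose in both tissues, from 15.1 and 14.3 CPM to between 73.7 and 76.2 CPM in brain and from 0.929, 0.805 and 0.823 CPM to 43.3 through 48.6 to 55.6 CPM in ovary. Its difference was -3.48 (SE 0.15; edgeR adjusted p = 1.75e-09), and that of Tep2 was -1.46 (SE 0.14; edgeR adjusted p = 8.33e-06). Ppn (Papilin), a matrix protein that blood cells secrete, had 1537 and 1330 CPM in wild-type brain and between 830 and 993 CPM in the mutants, which was not called in brain (edgeR adjusted p = 0.0526). It rose in ovary, from 28.1, 33 and 34.5 CPM to 41.9 through 55.1 to 95.8 CPM, and its difference was -1.55 (SE 0.22; edgeR adjusted p = 0.00102).

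Ribosomal protein genes differed by small amounts in one direction. Of 84 measured, none was called in brain, 1 rose and 32 fell in ovary, and 19 had a more positive effect in brain and none a more negative one. The shares of all 6953 genes were 15.8% lower in ovary and 3.15% more positive in brain. The median effect was 0.17 in brain and -0.16 in ovary. That of all 7172 genes was -0.03 in brain and 0.01 in ovary. The count of 19 was 38 with DESeq2's size factors, 56 with DESeq2 and 14 with library totals, and DESeq2 called 4 of the 84 higher in brain. RpS5a was at 764, 872 and 712 CPM in wild-type ovary and at 469 through 578 to 614 CPM in the mutants, with no overlap, and its brain libraries ran from 237 to 283 CPM. Its difference was 0.58 (SE 0.12; edgeR adjusted p = 0.0114). RpL3 and RpS7 had differences of 0.46 (SE 0.10) and 0.44 (SE 0.09). Without brain wild-type replicate 2 none of these 3 was called (edgeR adjusted p = 0.0903, 0.115 and 0.0826), and RpL3 was not called without replicate 1 either (edgeR adjusted p = 0.05). Of 62 genes of the respiratory chain, none was called in brain, 1 rose and 27 fell in ovary, and 1 had a called difference, ATPsyngamma at 0.34 (SE 0.09), which was lost under 15 of 25 alternatives. That count was 7 with DESeq2's size factors and 19 with DESeq2, each more positive in brain, and 0 with library totals. Follicle cell markers summed to 28800 to 30900 CPM in wild-type ovary and 15300 to 21100 CPM in the mutants. Of 25 tested there, 11 fell and 1 rose, beside 12.4% and 12.3% of all genes tested. Germline markers summed to 10900 to 11500 CPM in the mutants, which overlapped wild type. Whether that shift took part in the ovary changes was not tested.

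Single genes of the remaining lists were called for the difference. Obsc, a giant kinase of the muscle sarcomere, was at 82.6 and 85.2 CPM in wild-type brain and between 24.7 and 31.1 CPM in the mutants, while its ovary libraries overlapped, at 7.26, 9.48 and 9.28 CPM in wild type and 7.76 through 9.55 to 14.5 CPM in the mutants. Its difference was -1.79 (SE 0.22; edgeR adjusted p = 0.000223). Zasp52, of the sarcomere's Z-disc, followed at -0.68 (SE 0.10; edgeR adjusted p = 0.000628). Of 19 muscle genes, 3 fell in brain, 3 rose in ovary and these 2 had a more negative difference, beside 0.906%, 12.7% and 3.16% of the 6953 genes. Eaat1, the glutamate transporter of glia, was between 1142 and 1224 CPM in all brain libraries. It fell in ovary from 5.92, 5.89 and 4.3 CPM to 1.79 through 1.94 to 2.48 CPM, and its difference was 1.34 (SE 0.15; edgeR adjusted p = 3.67e-05). The glial sum in ovary was 208 to 226 CPM in wild type and 193 to 211 CPM in the mutants, with overlap. Of 13 glial markers 3 fell there, beside 12.4% of all genes tested.

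ovo, a transcription factor of the female germline, rose in brain from 11.6 and 10.3 CPM to between 18.9 and 22.4 CPM. In ovary it stood at 584, 561 and 577 CPM in wild type and at 529 through 533 to 560 CPM in the mutants, which did not overlap and was not called. Its difference was 1.00 (SE 0.08; edgeR adjusted p = 1.15e-06). bgm (bubblegum), an acyl-CoA synthetase, rose in brain from 16.4 and 11.3 CPM to between 21.3 and 24.1 CPM and was not called in ovary, with a difference of 0.78 (SE 0.13; edgeR adjusted p = 0.00153). PGRP-LC, the receptor of the Imd immune pathway, had a difference of -1.24 (SE 0.18), Fas3, an adhesion protein of follicle cells, -0.48 (SE 0.09), GstD1 -0.62 (SE 0.10), GstD3 -0.74 (SE 0.16) and Cyp6a9 -0.87 (SE 0.18). GstD3 was not called without brain wild-type replicate 2 (edgeR adjusted p = 0.0695), nor Cyp6a9 without brain wild-type replicate 1 (edgeR adjusted p = 0.0558). The calls of mael, tj, Dif, Hsp67Ba, Tret1-1, PGRP-SD and Desat1 were weaker, being lost under 17, 10, 13, 12, 5, 4 and 3 of 25 alternatives. Among the 7172 genes were 2 photoreceptor and 7 neuron genes, and none was called for the difference by edgeR, beside 7.24% of the 7172. Lists this small can hold no call at that share, and DESeq2 called 1 neuron gene more negative in brain.

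**Figure D3:**
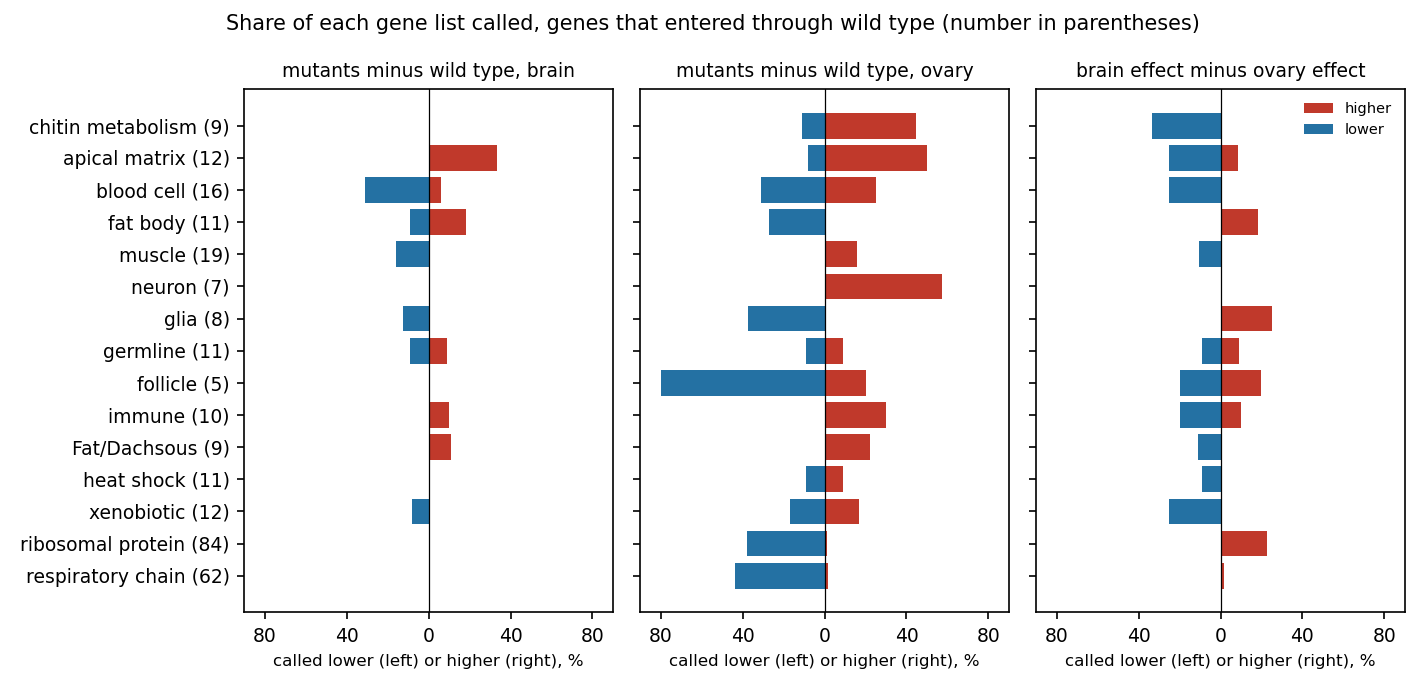
Share of the genes of each list called lower (blue, left of 0) or higher (red, right of 0) for the mutant effect in brain, the mutant effect in ovary and the tissue difference, for lists with at least 5 genes among the 6953 that entered through wild type in both tissues. Of the apical matrix genes 4 of 12 were higher in brain and 6 of 12 in ovary, and of the ribosomal protein genes 32 of 84 were lower in ovary and 19 of 84 more positive in brain than in ovary.

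Whether wild-type expression goes with the tissue of response was asked of the 6953 genes that met the minimum through wild type in both tissues. In wild type 1496 of them were at least 2-fold higher in brain, 2049 at least 2-fold higher in ovary, and 3408 lay within 2-fold. Calls in ovary in either direction were spread over the classes, at 30.2% of the genes higher in brain, 25.8% of the similar ones and 31.9% of those higher in ovary. Calls in brain were at 2.47%, 1.64% and 2.34%. The direction of the ovary calls differed by class in the TMM-scaled fit. Among genes higher in brain, 243 rose and 209 fell in ovary, and among similar genes 436 rose and 444 fell. Among genes higher in ovary, 206 rose and 447 fell there. Wild-type ovary libraries enter both the class and the direction. Across genes, the wild-type log2 ratio and the tissue difference had a Spearman correlation of -0.0905. Both share the wild-type libraries, so this is a description.

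Large changes in ovary were more frequent among genes that are higher in brain. Changes of at least 2-fold that were called in ovary were found in 4.08% of the genes higher in brain, in 0.763% of the similar ones and in 0.195% of those higher in ovary. The share grew with the ratio, to 7.54% of the 491 genes that were at least 8-fold higher in wild-type brain, of which 19 rose and 18 fell. In brain the same 3 shares were 0.802%, 0.499% and 0.537%. Of the 59 genes that rose at least 2-fold in ovary, 62.7% were higher in wild-type brain, and of the 32 that fell at least 2-fold, 75.0%. Over all 6953 genes that share was 21.5%. At the opposite end, 299 genes were at least 8-fold higher in wild-type ovary, and 6.69% of them were called in brain, against 2.03% of all 6953. Over the 538 genes under 5 CPM in wild-type brain, whatever their ratio, 6.32% were called in brain. The 299 genes were not divided by their brain level, so their share is not one of the ratio alone. The tissue difference was called for 11.0%, 4.49% and 5.95% of the 3 classes, and for 19.1% of the genes at least 8-fold higher in brain.

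**Figure D4:**
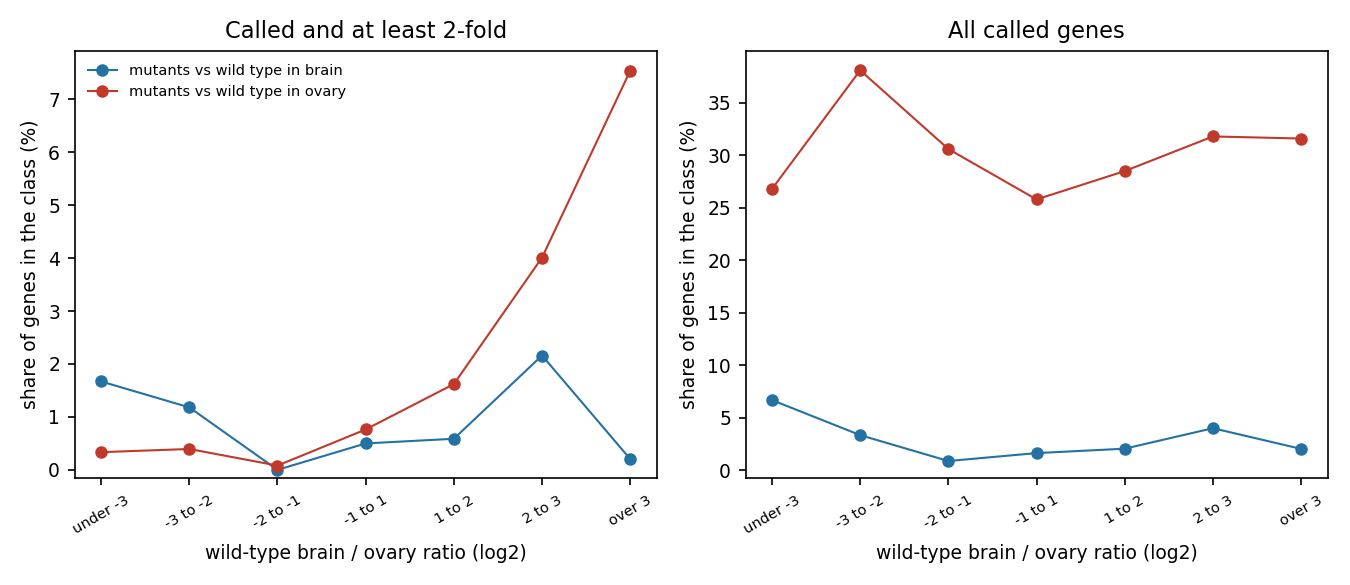
Share of genes called in brain (blue) and in ovary (red) by class of the wild-type brain-to-ovary ratio (log2, horizontal axis), over the 6953 genes that met the CPM minimum through wild type in both tissues. At the left, calls with at least a 2-fold change rise to 7.54% in ovary among the genes highest in brain relative to ovary; at the right, all calls in ovary lie between 25.8% and 38.1% with no such trend.

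Genes that are higher in brain tend to be low in ovary, and low genes changed by at least 2-fold more often. The shares were therefore also taken within bands of the wild-type level, chosen after the shares were seen. Among genes under 5 CPM in wild-type ovary, 9.63% of 374 genes higher in brain and 7.74% of 168 similar genes had a called change of at least 2-fold in ovary. From 5 to 20 CPM the shares were 6.05% of 347, 0.919% of 653 and, for genes higher in ovary, 0.855% of 234. From 20 to 100 CPM they were 0.821% of 487, 0.438% of 1598 and 0.192% of 1043. At 100 CPM or more, none of 2046 genes changed that much. In brain, the same shares at under 5 CPM were 1 of 16 genes higher in brain, 5.65% of 177 similar genes and 2.32% of 345 genes higher in ovary. From 5 to 20 CPM they were 3.38% of 148, 0.506% of 790 and 0.38% of 790, and from 20 to 100 CPM 1.38% of 363, 0.201% of 1495 and none of 713. From 5 to 100 CPM, genes higher in brain thus had the highest share in brain as well as in ovary, with 5 or fewer genes behind each share in brain. In ovary their share from 20 to 100 CPM rested on 4 genes, so the class stood clearly apart only from 5 to 20 CPM.

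Wild-type libraries enter both the ratio and the change. With the ratio taken from wild-type replicate 1 or 2 of each tissue and that library left out of the test, 4.02% or 4.28% of the genes higher in brain had a called change of at least 2-fold in ovary. Of the similar genes, 0.651% or 0.658% did, and of the genes higher in ovary 0.24% or 0.191%.

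Genes that met the CPM minimum in one tissue alone could not be placed in this comparison. Of those named here, kkv and Np met it in ovary through mutant libraries alone, as did thw in brain. Their rises there were fixed by the rule of entry. kkv (krotzkopf verkehrt), the chitin synthase of cuticle, went from 0.174, 0.867 and 1.14 CPM in wild-type ovary to 537 through 558 to 571 CPM in the mutants, an effect of 9.51 (SE 0.24; edgeR adjusted p = 1.97e-11). In brain it stayed between 0.605 and 2.07 CPM and was not called, although the mutants lay above wild type. Np (Notopleural), a membrane serine protease of epithelia, was at least 78.8-fold higher in mutant ovaries. Mco1, a multicopper oxidase, fell in ovary from 10.6, 11.7 and 10.7 CPM to 1.96 through 2.92 to 3.54 CPM, an effect of -2.01 (SE 0.14; edgeR adjusted p = 7.2e-08). In brain, thw rose from 0.181 and 0.329 CPM to between 9.36 and 14.7 CPM. Lsp1gamma, a larval serum protein, fell there from 2.93 and 2.58 CPM to between 0.331 and 0.699 CPM, an effect of -2.41 (SE 0.24; edgeR adjusted p = 1.36e-05). Fat body markers summed to 26000 to 32600 CPM in wild-type brain and 19400 to 23500 CPM in mutant brains. Of 17 tested there, 4 fell and 2 rose, beside 0.897% and 1.93% of all genes tested. The part of this shift in the level of Lsp1gamma was not tested.

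The called differences were spread over the chromosome arms. Of the 6953 genes, 6867 had a position on these arms, 434 of them with a called difference. The share ran from 5.00% on 3R and 5.72% on 3L to 7.83% on X. CG11247 itself lies on 3L.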

How the data were processed

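RNA-seq of adult female brains (6 libraries) and ovaries (9 libraries) was analysed; a table of S2 cells was not used. The authors deposited an estimated count per gene and library, of which 9.73% in brain and 7.31% in ovary were not whole (tolerance 0.0005), and these were rounded to whole numbers. Per the submitters' processing notes, Trim Galore 0.6.2 and Salmon 1.2.1 were used with build dm3. The sources used here do not say if the strand was used in counting, so overlapping and antisense genes are uncertain, as are near-identical copies such as ribosomal protein and glutathione transferase genes.

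Of the gene identifiers, 13661 matched the annotation by identifier, 132 by symbol and 162 not at all. All 15 libraries were fitted together over 10029 genes with edgeR 4.0.16 (R 4.3.3), using TMM scaling, the quasi-likelihood test and Benjamini-Hochberg adjustment over all genes, with an adjusted p under 0.05 called. CPM values are TMM-scaled. On simulated data (9967 genes), 93 of 100 genes changed 2-fold and 98 of 100 changed 4-fold were recovered, and 5 of 196 calls (2.55%) were unchanged genes. The changes were planted in mutant brains alone, equal in both mutants, and the counts were drawn with the spread of the same fit. These rates therefore do not cover changes in ovary, unlike mutants or shifts of whole libraries in the data. Alternatives included DESeq2 1.42.0, limma 3.58.1 (voom), other scalings and filters, each mutant alone, and each library left out. Counting intervals are 95% and, like bounds from 3 counts, cover counting error alone.

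Named genes were the 12 most negative and 12 most positive called differences whose groups did not overlap in the tissue with the larger change, 6 genes each with opposite effects and with same-sign effects and no called difference, up to 3 called genes per list by adjusted p, the 5 largest changes each way among genes above the CPM minimum in 1 tissue alone, and CG11247. The genes compared and the lists were chosen with earlier results of these data known. Promoter motifs were not analysed here.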

Additional observations from a re-analysis of the deposited data

Results flagged for a closer look

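The mutant effect differed between brain and ovary for 63 named genes by the edgeR test of the difference itself, and their values are given here as brain effect minus ovary effect on the log2 scale. A more negative effect in brain was found, with -7.20 for uif, -6.15 for ect, -6.13 for ple, -5.99 for Cyp301a1, -5.76 for CG43163, -4.24 for CG3348 and -2.35 for PPO1. The difference was -1.82 for ImpL2, -1.50 for CG40006, -1.61 for Hml, -1.28 for firl, -2.98 for rtv, -2.56 for Gasp and -1.22 for Cht6. It came to -5.20 for Cad96Ca, -3.48 for Tep3, -1.46 for Tep2, -1.55 for Ppn, -1.79 for Obsc, -0.68 for Zasp52 and -0.40 for mael. Values were -0.48 for Fas3, -1.24 for PGRP-LC, -0.61 for Dif, -2.80 for ft, -1.18 for ds, -1.72 for lft and -0.95 for Hsp67Ba. Further differences were -0.62 for GstD1, -0.87 for Cyp6a9 and -0.74 for GstD3. Among these genes uif, ect, ple, Cyp301a1, rtv, Gasp, Cad96Ca, Tep3, ft and lft met the CPM minimum in ovary through mutant libraries alone. rtv did so in brain too. Their rise there was fixed by the rule of entry. The calls of mael, Dif and Hsp67Ba were lost most often, under 17, 13 and 12 of 25 alternatives.

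The effect was more positive in brain, with 3.54 for lov, 3.44 for bnb, 2.97 for CG5644, 2.31 for nolo, 2.01 for RhoGAP100F, 1.76 for tty and 3.20 for CBP. On the same scale it was 2.62 for CG5921, 2.54 for f, 2.08 for CG5326, 1.97 for sona, 1.81 for Elovl7, 1.74 for qsm and 0.78 for bgm. It also came to 0.34 for Desat1, 1.34 for Eaat1, 0.58 for Tret1-1, 1.00 for ovo, 0.35 for tj, 1.71 for PGRP-SD and 0.44 for RpS7. Smaller values were 0.58 for RpS5a, 0.46 for RpL3, 0.34 for ATPsyngamma and 0.34 for CG11247. CG5921, f and CG5326 met the CPM minimum in brain through mutant libraries alone, so their rise there was fixed by the rule of entry. The calls of ATPsyngamma and tj were lost most often, under 15 and 10 of 25 alternatives.

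For 7 of these genes wild-type ovary held 3 counts or fewer, so the ovary change is given in place of a difference. All 7 met the CPM minimum in ovary through mutant libraries alone, so a rise there was fixed by the rule of entry. It was at least 28.0-fold higher for Cpr62Bb, 198-fold for Clect27, 1620-fold for spz4, 129-fold for CG11905 and 592-fold for dyl. The ratio of summed ovary counts was 572 for CG17211 (counting interval 103 to 22600) and 47.9 for CG10657 (16.3 to 234).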

How the results depend on the processing

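Of 74 named differences, 55 were called under every alternative run, and 1 named result reversed: the ovary effect on CG11247 was 0.209 in mutant 2 alone. Genes with a more positive effect in brain (227) numbered 365 with DESeq2's size factors, 366 with the 7172 genes fitted alone, 568 with DESeq2 and 109 in mutant 2 alone. Genes with a more negative one (292) numbered 453 with library totals and 192 in mutant 2. Genes lower in brain (65) numbered 99 with limma voom, 33 in mutant 1 and 42 in mutant 2. Genes higher in ovary (999) numbered 1720 with library totals and 610 in mutant 2, and lower ones (1102) 688 and 666. Leaving out each library in turn gave 79 to 317 and 166 to 367 genes for the difference, 94 to 153 and 22 to 72 in brain, and 504 to 1118 and 523 to 1215 in ovary, higher and lower. The cause was not tested.

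Correlations between the deviations of same-numbered samples ran from -0.174 to 0.284. Some such samples thus deviated together and others did not, and the numbers were not taken as pairs. With the replicate block, the difference was called for 280 and 315 genes, brain for 136 and 62, and ovary for 996 and 1096. The block gave the difference in 5.34% of similar genes and 7.61% of genes higher in ovary.

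Shares by wild-type class moved as follows. For genes higher in brain, the share called in brain (2.47%) was 3.61% with DESeq2, 1.07% or 1.05% with the ratio from wild-type replicate 1 or 2, and 0.802% for changes of at least 2-fold. In ovary (30.2%) it was 34.3%, 19.2%, 15.7% and 4.81%, and for the difference (11.0%) 16%, 5.29%, 6.12% and 5.21%, with 13.9% under TMM within tissues and 15.2% for a 4-fold class limit. For similar genes, the same 4 settings gave 2.38%, 0.769%, 1.02% and 0.558% in brain (1.64%), 28.3%, 14.3%, 8.85% and 0.792% in ovary (25.8%; 27.6% with TMM within tissues), and 8.3%, 1.24%, 1.02% and 0.968% for the difference (4.49%; 5.32% with DESeq2's size factors). For genes higher in ovary, the share in brain (2.34%) was 0.865% or 1.29% by replicate, 0.586% at 2-fold and 4.59% at the 4-fold limit. In ovary (31.9%) it was 34.9%, 18.3%, 10.3% and 0.342%, and 29.6% with TMM within tissues. For the difference (5.95%) it was 12.4%, 2.12%, 1.24% and 1.02%, with 8.01% under DESeq2's size factors and 7.57% at the 4-fold limit. Shares called and at least 2-fold, settings chosen after seeing the data, moved for genes higher in brain to 5.44% and 6.13% in ovary and 5.24% and 6.26% for the difference, under TMM within tissues and the 4-fold limit. For genes higher in ovary the 4-fold limit gave 1.36% in brain and 1.61% for the difference.

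Brain groups held 2 libraries and ovary groups 3 shallower ones, which limits low genes. The planned promoter motif comparison was not run.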
